A study of Homo sapiens with 4 samples.

Results

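Serine synthesis and folate one-carbon metabolism are described here through 10 enzymes, taken by name from the 23004 genes measured. They are the serine synthesis enzymes PHGDH, PSAT1 and PSPH, the cytosolic folate enzymes SHMT1, MTHFD1 and ALDH1L1, and the mitochondrial folate enzymes SHMT2, MTHFD2, MTHFD1L and ALDH1L2. RNA was sequenced from BEAS-2B, an immortalized line derived from human bronchial epithelium. One group was exposed to 100 µM formaldehyde for 48 h (2 libraries) and the other was left untreated (2 libraries); formaldehyde is named in the series title and the dose and time in the protocol label. All libraries come from this 1 line, and whether replicates were grown as separate cultures is not said in the labels, so the tests measure library-to-library spread that may be only technical. The study, by its title, concerns formaldehyde, chromatin assembly and cell transformation.

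Levels are the FPKM that the authors deposited, which count fragments relative to transcript length and to library size, added up here for each gene. The depth behind them, worked out from the deposited bounds and coverage, came to 14.2 and 22.2 M fragments (M, mega) in formaldehyde replicates 1 and 2, against 16.8 and 26.5 M in untreated replicates 1 and 2. Of the 8 markers of bronchial epithelium examined, KRT8 and KRT18, the keratins of simple epithelium, were abundant, at 358 FPKM or more in formaldehyde-treated cells and 291 FPKM or less in untreated cells, and the 8 summed to 882 and 894 FPKM with formaldehyde against 556 and 689 FPKM untreated. KRT17 was at 61.2 and 48.0 FPKM with formaldehyde, against 26.4 and 178 FPKM untreated. Its groups overlapped, and it was the only tested marker of this list with a log2 fold change below 0 (-0.35). KRT19 did not exceed 0.378 FPKM, was not tested, and was lower in both formaldehyde libraries. KRT5, the basal cell keratin, was listed at 0 in all libraries. CDH1, the epithelial cadherin, did not exceed 0.631 FPKM in any library, whereas VIM, the mesenchymal intermediate filament, was at 1043 and 786 FPKM in formaldehyde-treated cells and 782 and 642 FPKM in untreated cells. The 7 mesenchymal markers summed to 1328 and 1123 FPKM with formaldehyde, against 1189 and 1324 FPKM untreated, VIM making up the largest share. The other 4 tested markers had log2 fold changes below 0. COL1A1, a collagen chain, was at 137 and 254 FPKM with formaldehyde, against 279 and 568 FPKM untreated, lower in both formaldehyde libraries (log2 fold change -1.08), and the groups overlapped for PDGFRB (-0.93), CDH2 (-0.08) and FN1 (-0.08). None of the 5 passed the test over all genes (limma). The 7 leukocyte markers summed to 1.83 and 6.35 FPKM with formaldehyde, against 3.85 and 12.04 FPKM untreated, nearly all of it CD14, with CD3E at 0 and PTPRC at or under 0.0232 FPKM. The endothelial markers summed to 0.192 FPKM or less, and the hepatocyte markers, of a tissue rich in ALDH1L1, to 0.115 FPKM or less. The part of the keratin and collagen differences in what follows was not tested.

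Serine is made from the glycolytic intermediate phosphoglycerate by PHGDH, PSAT1 and PSPH acting in turn. Serine hydroxymethyltransferases pass a carbon from serine to tetrahydrofolate, and a cytosolic and a mitochondrial set of enzymes then carry that carbon between formate and methylene folate for the synthesis of purines, thymidylate and methionine. Formaldehyde meets this pathway at several points, because the methylene carbon of folate is at the same oxidation level and because the oxidation of formaldehyde yields formate, which MTHFD1 can attach to folate. Transcription of several of these enzymes is known to respond to ATF4, the transcription factor of the amino acid response.

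No enzyme of the 10 passed the test over all genes (limma on log2(FPKM + 1), adjusted p = 0.9999 for each of the 9 tested), where 0.153% of the 12407 tested genes passed in either direction. That share depends on very short genes: with only the 12015 genes of at least 300 nt, 1 gene passed, and it was none of the 10. At an unadjusted p under 0.05 there was 1 of the 9, PSAT1, where 1.93% of all genes were higher and 0.838% lower at that level. In 5 of the 9 the groups did not overlap and both formaldehyde libraries were the higher ones, and in 0 of the 9 they were the lower ones; the shares of all tested genes were 16.2% higher and 10.7% lower in this way. The 5 were PSAT1, PSPH, MTHFD2, MTHFD1L and ALDH1L2. The median log2 fold change of the 9 was 0.46, beside 0.03 over all tested genes. In bulk RNA, fewer cells with a transcript and less of it per cell cannot be told apart.

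**Figure D1:**
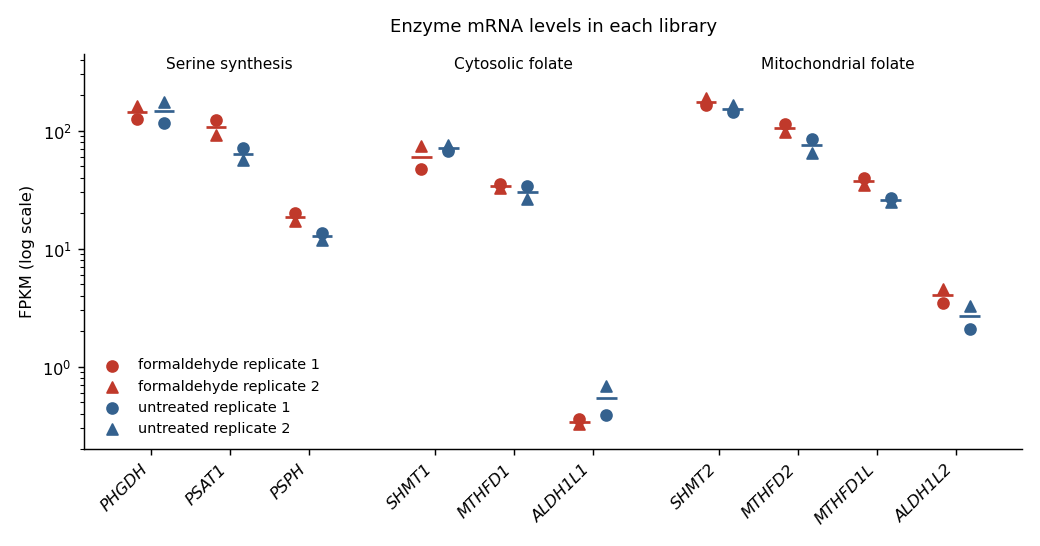
Level of each enzyme in FPKM on a log axis, in formaldehyde-treated (red) and untreated (blue) BEAS-2B cells; circles are replicate 1, triangles replicate 2 and bars the mean of 2 libraries. The red points of PSAT1, PSPH, MTHFD2, MTHFD1L and ALDH1L2 all lie above the blue ones, SHMT2 and PHGDH are the most abundant, and ALDH1L1 stays under 1 FPKM in every library.

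The enzymes spanned a wide range of levels. SHMT2 was the highest in both formaldehyde libraries and in untreated replicate 1, while PHGDH was the highest in untreated replicate 2, at 176 FPKM against 164 FPKM for SHMT2. ALDH1L1 was the lowest in every library and ALDH1L2 the next lowest. SHMT2 lay above PHGDH beyond the spread of the replicates with formaldehyde, but their ranges overlapped in untreated cells. The neighbours PSAT1 and MTHFD2 overlapped in both groups, and MTHFD1 and MTHFD1L exchanged places between the groups, MTHFD1L having the higher mean with formaldehyde and MTHFD1 in untreated cells. This exchange depends on a short MTHFD1L transcript that ends early, without which MTHFD1L was below MTHFD1 in every library.

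Among the serine synthesis enzymes, PSAT1 and PSPH were higher with formaldehyde in both libraries, and PHGDH was not. PHGDH, the dehydrogenase that commits phosphoglycerate to serine (chromosome 1, hg19, 120254419 to 120286849), had 126 and 161 FPKM in formaldehyde-treated cells, against 116 and 176 FPKM in untreated cells. The groups overlapped, with the lowest and the highest library both untreated. Its mean was 143 ± 24.3 FPKM with formaldehyde and 146 ± 42.0 FPKM untreated (SD, n = 2 each), and its log2 fold change of -0.0059 had a 95% interval of -0.77 to 0.76. That interval includes changes of the size seen for PSAT1 only at its upper edge.

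PSAT1, the aminotransferase that takes nitrogen from glutamate (chromosome 9, hg19, 80912059 to 80945009), had 122 and 92.5 FPKM in formaldehyde-treated cells, against 71.1 and 56.2 FPKM in untreated cells. Every formaldehyde library exceeded every untreated one, with mean levels of 107 ± 20.7 and 63.7 ± 10.5 FPKM in turn (SD, n = 2 each), a ratio of 1.68. Its log2 fold change of 0.74 ± 0.25 (SE) had a 95% interval of 0.08 to 1.39. Counting error was small beside this, at 4.08% or less of the level in any library (95%).

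PSPH, the phosphatase that releases serine (chromosome 7, hg19, 56078744 to 56119268), had 19.9 and 17.1 FPKM in formaldehyde-treated cells, against 13.5 and 11.8 FPKM in untreated cells. The groups did not overlap, and the ratio of means was 1.46. That gave a log2 fold change of 0.51 ± 0.20 (SE), with a 95% interval of -0.01 to 1.04. RefSeq lists a pseudogene of this enzyme, PSPHP1, on the same chromosome, and pseudogenes of PSAT1, SHMT1, MTHFD1 and MTHFD2 elsewhere, so the values of these 5 enzymes are uncertain by the reads that copies share.

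The cytosolic folate enzymes showed no common direction. SHMT1, the cytosolic serine hydroxymethyltransferase (chromosome 17, hg19, 18231187 to 18266856), had 46.8 and 73.4 FPKM in formaldehyde-treated cells, against 66.8 and 75.7 FPKM in untreated cells. Formaldehyde replicate 1 was the lowest library, and the groups overlapped. The log2 fold change was -0.27 ± 0.28 (SE), with a 95% interval of -1.01 to 0.46, and it was 0.045 without formaldehyde replicate 1.

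MTHFD1, a single protein that carries the synthetase, cyclohydrolase and dehydrogenase steps of the cytosol (chromosome 14, hg19, 64854759 to 64926725), had 35.5 and 32.6 FPKM in formaldehyde-treated cells, against 34.0 and 26.5 FPKM in untreated cells. The groups overlapped, and only untreated replicate 2 stood apart from the rest. Its log2 fold change was 0.17 ± 0.22 (SE), with a 95% interval of -0.39 to 0.74, and 0.0012 without untreated replicate 2.

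ALDH1L1, the cytosolic formyltetrahydrofolate dehydrogenase that removes folate-bound carbon as CO2 (chromosome 3, hg19, 125822408 to 125899485), had 0.361 and 0.324 FPKM in formaldehyde-treated cells, against 0.387 and 0.686 FPKM in untreated cells. Both formaldehyde libraries were lower, the nearer untreated one by a small step. These levels rest on about 15 and 21 fragments with formaldehyde and 19 and 52 fragments untreated, a counting error of 27.1% to 50.7% of the level (95%, counting error only). The gene was under the filter of a mean of 1 FPKM and was not tested. It also has the antisense genes ALDH1L1-AS1 and ALDH1L1-AS2, whose reads could not be kept apart without a known strand setting.

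The mitochondrial folate enzymes had higher means with formaldehyde in all 4 cases, as did 6831 of the 12407 tested genes, and 3 of the 4 separated the groups, as 16.2% of tested genes did upward; 0 of the 4 passed the test. MTHFD1L, the mitochondrial formyltetrahydrofolate synthetase that releases formate for the cytosol (chromosome 6, hg19, 151186815 to 151423023), had 39.6 and 34.9 FPKM in formaldehyde-treated cells, against 27.1 and 24.8 FPKM in untreated cells. Both groups were tight, with means of 37.3 ± 3.31 and 25.9 ± 1.58 FPKM in turn (SD, n = 2 each), a ratio of 1.44. On the log2 scale the change was 0.50 ± 0.20 (SE), with a 95% interval of -0.0015 to 1.01.

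MTHFD2, the mitochondrial methylenetetrahydrofolate dehydrogenase and cyclohydrolase (chromosome 2, hg19, 74425690 to 74442424), had 113 and 97.9 FPKM in formaldehyde-treated cells, against 85.6 and 64.5 FPKM in untreated cells. The groups did not overlap, and the ratio of means was 1.40. The log2 fold change was 0.49 ± 0.24 (SE), with a 95% interval of -0.13 to 1.12.

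ALDH1L2, the mitochondrial counterpart of ALDH1L1 (chromosome 12, hg19, 105413562 to 105478341), had 3.46 and 4.56 FPKM in formaldehyde-treated cells, against 2.09 and 3.24 FPKM in untreated cells. Both formaldehyde libraries were higher, though formaldehyde replicate 1 and untreated replicate 2 were close. The ratio of means was 1.51, and the log2 fold change was 0.46 ± 0.27 (SE), with a 95% interval of -0.24 to 1.16. At this low level the log2(FPKM + 1) scale understates the change.

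SHMT2, the mitochondrial serine hydroxymethyltransferase (chromosome 12, hg19, 57623356 to 57628718), had 163 and 189 FPKM in formaldehyde-treated cells, against 143 and 164 FPKM in untreated cells. Formaldehyde replicate 1 and untreated replicate 2 were level, so the groups overlapped. Its log2 fold change of 0.20 ± 0.22 (SE) had a 95% interval of -0.38 to 0.77.

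**Figure D2:**
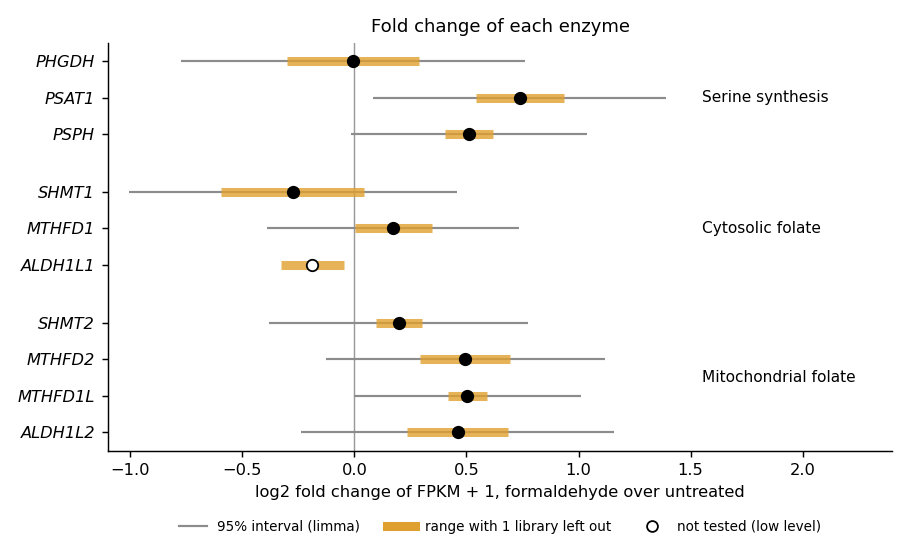
Log2 fold change of FPKM + 1 for each enzyme, formaldehyde over untreated. Points are the change over 2 libraries a group, thin lines the 95% interval from limma, thick lines the range when 1 library at a time was left out, and the open point is ALDH1L1, which was not tested. The thick lines of PSAT1, PSPH, MTHFD1 and all 4 mitochondrial folate enzymes stay above 0, whereas those of PHGDH and SHMT1 cross it. Where the groups do not overlap, the thick line cannot cross 0.

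As groups, the mitochondrial folate enzymes had a median log2 fold change of 0.48, the cytosolic folate enzymes -0.05 over the 2 tested, and the serine synthesis enzymes 0.51. With the untested ALDH1L1 included, the cytosolic median was the value of that gene, -0.19. The summed level of the mitochondrial enzymes was 319 and 326 FPKM with formaldehyde, against 258 and 256 FPKM untreated. That of the cytosolic enzymes was 82.6 and 106 FPKM with formaldehyde, against 101 and 103 FPKM untreated. The first pair of sums separated the groups and the second did not. SHMT2 makes up most of the first and SHMT1 of the second. Alone, SHMT2 overlapped between the groups, whereas MTHFD2, MTHFD1L and ALDH1L2 did not.

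Within a library, each mitochondrial enzyme was set against its cytosolic counterpart, a ratio that does not depend on how the libraries were scaled. All 4 ratios were higher in both formaldehyde libraries than in either untreated library. How often the ratios of other gene pairs separate in this way was not worked out. SHMT2 stood at 3.49 and 2.57 times the level of SHMT1 in formaldehyde-treated cells, against 2.14 and 2.16 times in untreated cells. MTHFD1L stood at 1.12 and 1.07 times the level of MTHFD1 with formaldehyde, above parity, against 0.796 and 0.936 times untreated, below it. That level of MTHFD1L includes a short transcript that ends early. The longer transcripts alone, at 20.2 and 16.5 FPKM with formaldehyde against 14.7 and 10.99 FPKM untreated, were below MTHFD1 in every library. MTHFD2 stood at 3.18 and 2.998 times the level of MTHFD1 with formaldehyde, against 2.52 and 2.43 times untreated. ALDH1L2 stood at 9.59 and 14.1 times the level of ALDH1L1 with formaldehyde, against 5.41 and 4.72 times untreated, a ratio whose lower term rests on few fragments.

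On the scale of log2(FPKM + 1), these ratios were higher with formaldehyde by 0.47 for SHMT2 to SHMT1, 0.33 for MTHFD1L to MTHFD1, 0.32 for MTHFD2 to MTHFD1 and 0.65 for ALDH1L2 to ALDH1L1. For each of the 4, the exact permutation test over libraries, two-sided, gave p = 0.33, the smallest that 2 against 2 allows, and 0.33 again when adjusted over the 4. The 4 ratios are not separate pieces of evidence, since they share libraries and both MTHFD ratios share MTHFD1. The SHMT2 to SHMT1 difference was 0.26 without formaldehyde replicate 1, the library in which SHMT1 was lowest, and 0.031 where the most abundant transcript replaced the sum. The ALDH1L2 to ALDH1L1 difference was 1.08 with a pseudocount of 0.1.

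**Figure D3:**
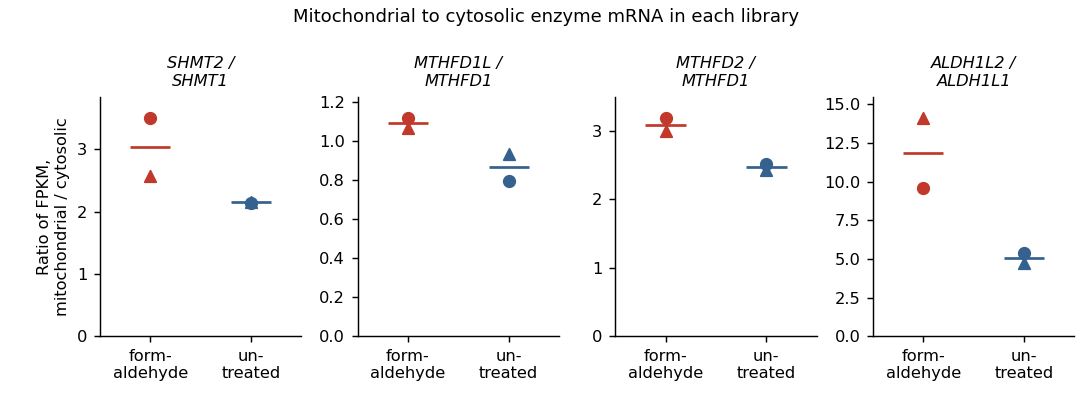
Ratio of the FPKM of each mitochondrial folate enzyme to that of its cytosolic counterpart, in formaldehyde-treated (red, left) and untreated (blue, right) cells; circles are replicate 1, triangles replicate 2, bars the mean of 2 libraries, and each axis starts at 0. In every panel both red points lie above both blue points, with the widest gap between red points in the SHMT and ALDH1L panels.

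A difference by replicate number ran through the same enzymes. In 9 of the 10, the same replicate number was the higher one in both groups, where 67% of all tested genes showed this. PSAT1, PSPH, MTHFD1, MTHFD2 and MTHFD1L were higher in replicate 1 of each group, and PHGDH, SHMT1, SHMT2 and ALDH1L2 in replicate 2. ALDH1L1 was the exception. The labels do not say what the numbers stand for. Replicate 2 was the deeper library in each group, at 22.2 against 14.2 M fragments with formaldehyde and 26.5 against 16.8 M untreated. Depth and replicate number therefore cannot be told apart.

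The transcripts of a gene, whose shares the authors' software estimated from reads they largely have in common, were less steady than the sums. PSAT1 was divided between NM_058179, at 97.3 and 54.8 FPKM with formaldehyde against 62.1 and 27.8 FPKM untreated, and NM_021154, at 24.5 and 37.7 FPKM with formaldehyde against 9.06 and 28.4 FPKM untreated. Neither transcript alone separated the groups, although their sum did.

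MTHFD1L was divided between longer transcripts that share the last 3′ end and NM_001242769, a transcript that ends early, at position 151220136. Of the longer ones, NM_001242768 starts downstream, at position 151187469. The longer transcripts summed to 20.2 and 16.5 FPKM with formaldehyde, against 14.7 and 10.99 FPKM untreated. The short transcript was at 19.4 and 18.4 FPKM with formaldehyde, against 12.3 and 13.8 FPKM untreated. Both kinds separated the groups, and the short one made up 48.9% and 52.6% of the gene with formaldehyde and 45.6% and 55.7% untreated. The longer kind is a sum of 3 estimates, none of which separated the groups alone. NM_001242767, for example, was at 17.5 and 3.48 FPKM with formaldehyde, against 9.07 and 2.62 FPKM untreated.

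SHMT2 is known to yield, from an internal start, a protein without the mitochondrial import signal, so that this gene is not mitochondrial in all its products; the files do not say which transcript encodes which. Transcripts from the first start, position 57623356, summed to 68.5 and 40.9 FPKM with formaldehyde, against 64.0 and 38.4 FPKM untreated. Transcripts from downstream starts summed to 95.0 and 148 FPKM with formaldehyde, against 79.2 and 125 FPKM untreated. Each sum followed the replicate number more than the treatment, and the first start held 41.9% and 21.7% of the gene with formaldehyde and 44.7% and 23.4% untreated. SHMT1 was divided between NM_004169, at 36.3 and 46.7 FPKM with formaldehyde against 53.1 and 52.9 FPKM untreated, and NM_148918, at 10.5 and 26.7 FPKM with formaldehyde against 13.7 and 22.8 FPKM untreated. NM_004169 was lower in both formaldehyde libraries, and NM_148918 overlapped.

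**Figure D4:**
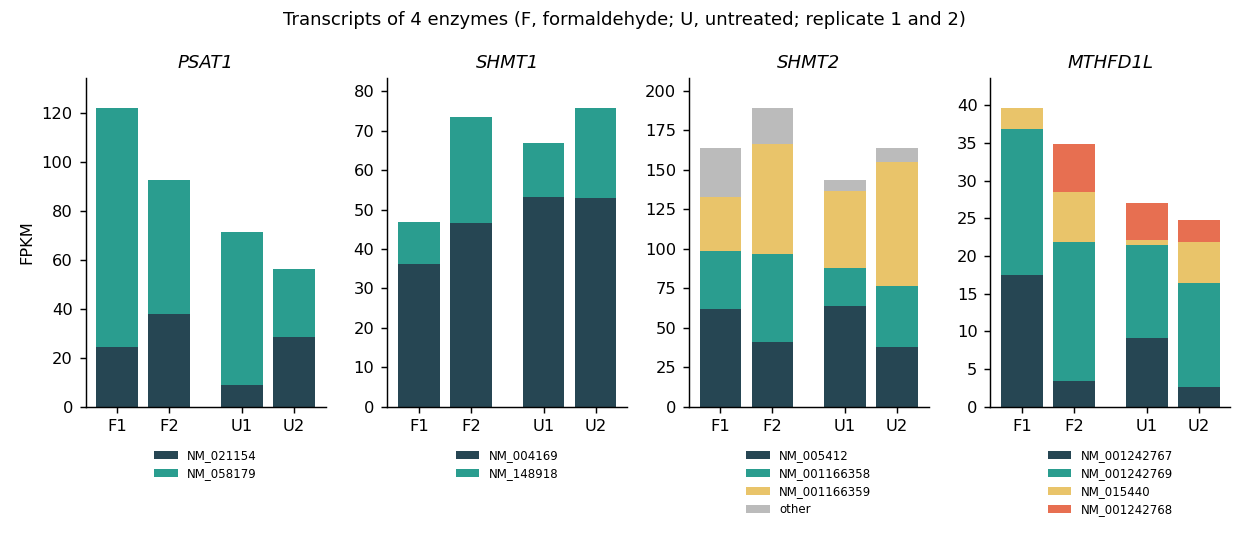
Estimated FPKM of the transcripts of PSAT1, SHMT1, SHMT2 and MTHFD1L in formaldehyde (F1, F2) and untreated (U1, U2) libraries, stacked to the level of the gene; grey holds transcripts under 10% of the gene in every library. Stack heights separate the groups for PSAT1 and MTHFD1L. Within PSAT1, SHMT1 and SHMT2 the division differs more between replicate 1 and 2 than between treatments. The transcripts of MTHFD1L also differ in share between replicates.

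Promoter windows, from 250 bases before to 50 bases after an annotated start, were given for 7 of the 10 enzymes (RefSeq, GRCh38.p14). They were searched on both strands for TGATGNAA, the core of the C/EBP-ATF response element that ATF4 binds, and for CACGTG, the E-box that MYC binds. The first motif was held by 3.62% and the second by 7.26% of all 35116 promoter windows. TGATGNAA was found for 1 of the 7, MTHFD1L, as TGATGCAA, and CACGTG for 2 of the 7, MTHFD1L and MTHFD1. The 7 enzymes had 11 windows, so these counts of enzymes are not in the same unit as the shares of windows. The windows of PHGDH, PSAT1, SHMT1, ALDH1L1 and MTHFD2 held neither, which says only that these letters are not in these windows. The windows below set MTHFD1L, whose groups separated, beside its cytosolic counterpart MTHFD1, whose groups overlapped, and beside PSAT1 and MTHFD2, which were higher in both formaldehyde libraries without a match. All are read 5′ to 3′ on the plus strand, with matches in capitals. For MTHFD1L, the CACGTG lay at bases -154 to -149 and the TGATGCAA at bases -129 to -122. These positions are counted from the annotated start inside the window shown. MTHFD1L has other annotated starts, and from the first of them the same matches lay at bases -1 to 5 and 25 to 32. The window of its last annotated start held neither. For MTHFD1 the CACGTG lay at bases -15 to -10.
MTHFD1L (chr6:150866236-150866535): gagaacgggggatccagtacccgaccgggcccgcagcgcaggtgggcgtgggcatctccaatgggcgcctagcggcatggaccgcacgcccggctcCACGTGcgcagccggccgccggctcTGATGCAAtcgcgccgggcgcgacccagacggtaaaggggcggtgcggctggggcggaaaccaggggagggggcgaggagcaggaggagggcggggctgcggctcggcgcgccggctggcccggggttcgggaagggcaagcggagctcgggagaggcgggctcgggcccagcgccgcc
MTHFD1 (chr14:64388103-64388402): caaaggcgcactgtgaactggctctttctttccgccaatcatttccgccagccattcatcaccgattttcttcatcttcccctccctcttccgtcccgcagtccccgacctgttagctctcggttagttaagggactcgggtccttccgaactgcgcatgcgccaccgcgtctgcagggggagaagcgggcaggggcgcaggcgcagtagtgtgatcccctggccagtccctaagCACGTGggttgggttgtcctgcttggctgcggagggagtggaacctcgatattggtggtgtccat
PSAT1 (chr9:78296875-78297174): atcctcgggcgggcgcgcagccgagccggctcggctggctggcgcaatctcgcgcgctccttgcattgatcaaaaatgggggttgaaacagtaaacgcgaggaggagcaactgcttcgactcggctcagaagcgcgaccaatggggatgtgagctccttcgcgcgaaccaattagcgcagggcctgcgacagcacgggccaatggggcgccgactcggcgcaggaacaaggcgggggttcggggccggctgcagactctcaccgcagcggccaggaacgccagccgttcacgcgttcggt
MTHFD2 (chr2:74198365-74198664): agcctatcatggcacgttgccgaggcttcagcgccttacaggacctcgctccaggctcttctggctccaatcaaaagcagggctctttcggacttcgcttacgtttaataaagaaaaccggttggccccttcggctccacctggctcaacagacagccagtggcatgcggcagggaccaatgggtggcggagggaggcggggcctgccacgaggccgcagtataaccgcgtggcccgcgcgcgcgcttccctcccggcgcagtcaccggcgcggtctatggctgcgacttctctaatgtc

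The factors known to act on this pathway did not separate the groups. ATF4 mRNA was at 231 and 348 FPKM with formaldehyde, against 208 and 265 FPKM untreated, a log2 fold change of 0.27 ± 0.31 (SE); the protein is controlled largely by translation, which was not measured. MYC was at 49.4 and 78.8 FPKM with formaldehyde, against 30.9 and 91.9 FPKM untreated, and NFE2L2, the antioxidant factor NRF2, at 24.5 and 24.3 FPKM against 34.1 and 20.9 FPKM untreated. Of 7 ATF4 target genes outside the pathway, 0 passed over all genes by limma and 2 had an unadjusted p under 0.05, 4 separated the groups upward and 0 downward (16.2% and 10.7% of all tested genes), and the median log2 fold change was 0.68. The 2 were TRIB3 and STC2. TRIB3, an ATF4-induced pseudokinase, was at 68.3 and 67.5 FPKM with formaldehyde, against 21.8 and 27.7 FPKM untreated. STC2 was at 106 and 88.8 FPKM with formaldehyde, against 33.9 and 59.8 FPKM untreated. ASNS, asparagine synthetase, separated the groups without reaching that p, at 62.1 and 64.3 FPKM with formaldehyde against 36.6 and 50.4 FPKM untreated. DDIT3, CHAC1 and VLDLR overlapped, and VLDLR alone had a log2 fold change below 0 (-0.26).

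Of 17 other genes of folate use and transport, 14 were tested, 0 passed by limma in either direction and 0 had an unadjusted p under 0.05. Of the 14, 4 separated the groups upward and 2 downward, beside 16.2% and 10.7% of all tested genes. Their median log2 fold change was 0.12. SLC19A1, the reduced folate carrier, was at 31.4 and 28.5 FPKM with formaldehyde, against 21.5 and 24.9 FPKM untreated, higher in both formaldehyde libraries. TYMS, thymidylate synthase (named after its values were seen), overlapped, at 167 and 184 FPKM with formaldehyde against 191 and 154 FPKM untreated.

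The glycine cleavage system, which feeds the mitochondrial folate pool, had 0 of 4 tested genes past the threshold by limma (0 at an unadjusted p under 0.05) and a median log2 fold change of 0.16. GLDC, its decarboxylase, was at 8.54 and 8.74 FPKM with formaldehyde, against 6.67 and 6.35 FPKM untreated. It was the only one of the 4 to separate the groups, upward, beside 16.2% of all tested genes upward and 10.7% downward. The methionine cycle and transsulfuration genes had 0 of 8 past the threshold by limma (0 at an unadjusted p under 0.05) and a median of 0.12. In either direction 0 of the 8 separated, beside the same 16.2% and 10.7% of all tested genes. CTH, which makes cysteine, was at 4.10 and 7.11 FPKM with formaldehyde, against 4.55 and 2.79 FPKM untreated, and MTRR and AHCY overlapped likewise.

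The enzymes that oxidize formaldehyde to formate overlapped between the groups. ADH5, the glutathione-dependent dehydrogenase, was at 22.0 and 15.3 FPKM with formaldehyde, against 30.4 and 13.1 FPKM untreated. ESD, the esterase that follows it, was at 44.9 and 36.4 FPKM with formaldehyde, against 50.7 and 28.8 FPKM untreated, and ALDH2, the mitochondrial aldehyde dehydrogenase, at 12.9 and 16.1 FPKM against 10.4 and 13.5 FPKM untreated.

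Folate enzymes are also tied to growth, so S phase genes were set beside them. Of 12 such genes, 0 passed by limma and 0 had an unadjusted p under 0.05, and the median log2 fold change was -0.13. Of the 12, 0 separated the groups upward and 2 downward, beside 16.2% and 10.7% of all tested genes. Set against the untreated mean, these S phase genes had a median of -0.30 in formaldehyde replicate 1 and 0.05 in formaldehyde replicate 2. In the same libraries the mitochondrial folate median was 0.45 and 0.40 and the serine synthesis median 0.62 and 0.41. The part of growth in the enzyme differences was not tested. The nuclear-retained RNAs MALAT1 and NEAT1 differed mostly within the untreated group: MALAT1 was at 38.7 and 38.5 FPKM with formaldehyde, against 27.2 and 92.5 FPKM untreated, and NEAT1 at 485 and 335 FPKM against 218 and 596 FPKM untreated. Their part in these results was not tested.

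**Figure D5:**
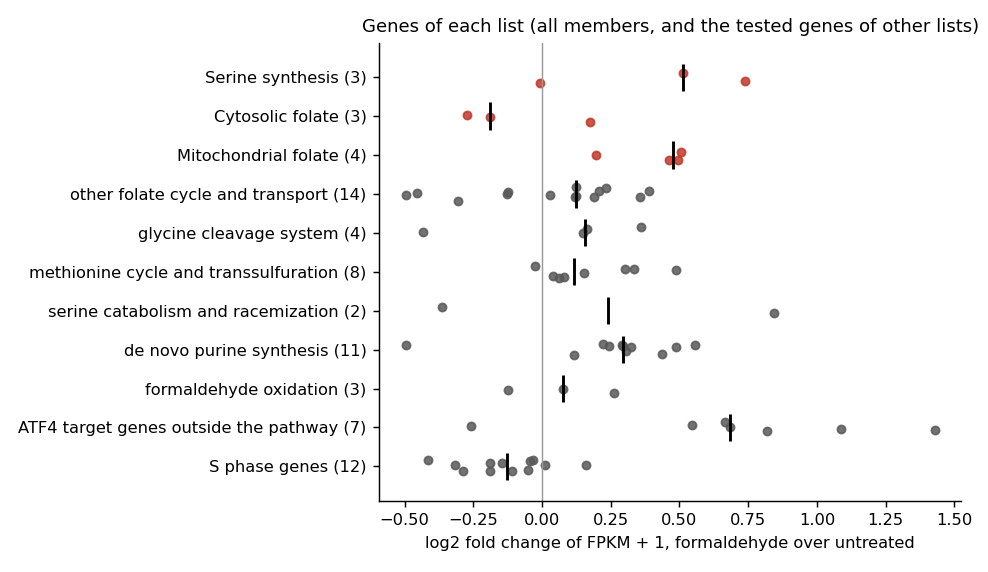
Log2 fold change of FPKM + 1, formaldehyde over untreated, for all 10 enzymes (red) and for the tested genes of related lists (grey), with the number of genes in brackets and a black line at each median. The medians of serine synthesis, 0.51, and mitochondrial folate, 0.48, lie between those of the other folate genes, 0.12, and the ATF4 targets, 0.68.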

How the data were processed

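Total RNA of 4 BEAS-2B libraries was sequenced on an Illumina HiSeq. Reads were handled with STAR 2.5.2, Cufflinks 2.0.2 and FastQC 0.10.0 on hg19, also called GRCh37, per the submitters' processing notes. Neither the strand setting nor the handling of multi-mapped reads is given in the sources used here, so that antisense or near-identical genes cannot be told apart. The authors deposited FPKM, the name the attribute text carries, for 40255 transcripts in each file, matched to samples by title. The rest were summed per gene after 894 unnamed transcripts, with 1.07% to 1.31% of the FPKM, were left out. Depth came from the deposited bounds and coverage of single-transcript genes (read length 51 nt), and fragment numbers of the enzymes from it; no count test was run.

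Genes with a mean of at least 1 FPKM (12407) were compared between formaldehyde and untreated libraries by limma 3.58.1 (R 4.3.3; eBayes with a trend, log2(FPKM + 1), no covariate), two-sided, Benjamini-Hochberg over all genes, threshold 0.05. The test was checked on simulated data with independent noise, no replicate-number difference, and changes larger than those of the enzymes. That check does not cover changes of the size seen here. Alternatives covered pseudocount, filter, scaling, the highest transcript, gene length, variance model, replicate block and each library left out. The enzymes and lists were chosen with earlier results of these data known. All 10 enzymes, up to 3 genes of each related list by absolute moderated t, and the transcripts holding at least 10% of an enzyme were eligible to be named; not every eligible gene is named. Figures used matplotlib 3.10.9.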

Additional observations from a re-analysis of the deposited data

How the results depend on the processing

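No enzyme passed the threshold under any of the 15 alternatives run (limma; 0 to 4 of them at an unadjusted p under 0.05). PSAT1, PSPH, MTHFD1, ALDH1L1, MTHFD2, MTHFD1L and ALDH1L2, the 4 ratios and the medians of the serine synthesis and mitochondrial enzymes kept their direction under all 15. Much of this was fixed in advance, since the filter, gene length, variance model and replicate block leave a fold change as it is. Leaving out 1 library also cannot reverse a change or ratio whose groups do not overlap. The log2 fold change of SHMT2 was -0.32 with the highest transcript of each gene, and leaving out 1 library took PHGDH between -0.30 and 0.29 (0.29 lacking untreated replicate 2, 0.17 lacking formaldehyde replicate 1) and SHMT1 between -0.59 and 0.045 (the last lacking formaldehyde replicate 1); the cause was not tested. With 1 library left out, the median was -0.33 to 0.045 for the cytosolic (over all 3), 0.37 to 0.45 for the mitochondrial and 0.41 to 0.62 for the serine synthesis enzymes. Over all genes, 19 passed; the number was 0 with no filter on low values (652 at an unadjusted p under 0.05), 1 with genes of at least 300 nt, 29 with the replicate number as a block, and 31 to 55 with 1 library left out. Deviations of same-numbered libraries from their group means correlated at r = 0.25 over 12407 genes, which are not independent replicates. With that block, 4 enzymes had an unadjusted p under 0.05 and the smallest limma adjusted p was 0.533. The labels do not say that a number marks a shared batch. Counting error is widest for ALDH1L1.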

Other observations

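Purine synthesis, which takes formyl groups from folate, was measured in 11 genes. None passed over all genes by limma and 0 had an unadjusted p under 0.05, while 6 had both formaldehyde libraries above both untreated libraries and 0 below, beside 16.2% and 10.7% of all tested genes. The median log2 fold change was 0.29. GART, which carries a formyl transfer, was at 91.0 and 102 FPKM with formaldehyde, against 82.1 and 61.4 FPKM untreated. ATIC, which carries the other formyl transfer, was at 50.4 and 39.5 FPKM with formaldehyde, against 37.4 and 24.1 FPKM untreated, and ADSL, a lyase of the same route, at 63.9 and 59.6 FPKM against 56.5 and 33.8 FPKM untreated. For GART, ATIC and ADSL the lowest library was untreated replicate 2.

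SDSL, a protein related to serine dehydratase, was at 12.2 and 8.11 FPKM with formaldehyde, against 5.14 and 5.07 FPKM untreated, 0.85 ± 0.25 higher on the log2 scale (SE; adjusted p = 0.9999 by limma). SRR, serine racemase, overlapped, at 5.57 and 10.2 FPKM with formaldehyde against 10.5 and 9.59 FPKM untreated, and SDS, serine dehydratase, did not exceed 0.085 FPKM in any library.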
